A study of Mus musculus with 9 samples.

Results

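The genes of the 2-cell-like state examined here were Zscan4a, Zscan4c, Zscan4d, Zscan4f, Zfp352, Tcstv1 and Tcstv3. They were chosen by name with earlier results of these arrays known, so the tests on them are not independent of that choice. Their probes were found through the RefSeq accession that the array annotation gives for each spot. Of these 7 genes, 6 had a probe on the array, with 10 probes in all among 55681. Zscan4d had none. Of the 6, 4 passed the filter on dim probes and were tested among 15011 genes: Zscan4a, Zscan4c, Zscan4f and Zfp352. The filter kept a probe that was well above background on at least 3 of the 9 arrays, which Tcstv1 and Tcstv3 did not reach. Zscan4a, Zscan4c and Zscan4f reached it through the 3 wild type arrays, where they were bright, so a lower knock-in level was favoured among the genes tested.

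The cells were 3 mouse embryonic stem (ES) lines: one with a PKM1 knock-in, one with a PKM2 knock-in and a wild type one. Pyruvate kinase M, encoded by Pkm, carries out the last step of glycolysis, and M1 and M2 are its splice forms. Each line was sampled undifferentiated, in medium with the cytokine LIF (day 0), and as floating embryoid bodies, cell aggregates kept without LIF, at days 3 and 7. RNA was hybridised to one-colour Agilent arrays, 1 array per line and day, and each genotype is 1 cell line. The 3 days therefore served as the repeats of a line and the 3 lines as the repeats of a day. A p-value here measures the spread between these 9 arrays, which may be partly technical, and does not cover the difference between independent clones of a genotype.

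A small fraction of mouse ES cells passes for a short time through a state that resembles the 2-cell embryo, the stage at which the mouse embryo switches on its own genome. The homeobox factor Dux is known to activate the Zscan4 genes and other genes of this state. Zscan4 proteins carry a SCAN domain and zinc fingers and are known in ES cells for the lengthening of telomeres by recombination. Zfp352 encodes another zinc finger protein of the 2-cell embryo, and Tcstv1 and Tcstv3 encode small proteins transcribed in the 2-cell embryo and in the ES cells that express Zscan4. In RNA from whole cultures, fewer cells in such a state and less RNA per cell cannot be told apart.

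The Zscan4 genes lie in a cluster on chromosome 7. In the RefSeq annotation of the GRCm38.p6 assembly it spans 41 genes, of which 9 are Zscan4 loci and 34 are classed as pseudogenes, Zscan4a among them. The copies are alike: among the members in the cluster, promoter windows were on hand for Zscan4c, Zscan4d and Zscan4f. They are printed here because they show how little separates these copies next to the transcription start. Each holds 250 bases before to 50 after the annotated start, in the direction of transcription, from RefSeq on GRCm38.p6. The window of Zscan4c is chr7:11005495-11005794 (+ strand), that of Zscan4d is chr7:11166099-11166398 (- strand) and that of Zscan4f is chr7:11397665-11397964 (+ strand). The window of Zfp352, chr4:90218570-90218869 (+ strand), is shown beside them as the member whose tested probe differed from the Zscan4 probes. Capitals mark TATAAA, the core of the TATA box, and TGATTNAAT, the first 9 of the 11 letters of the Dux motif. Both strands were searched.
Zscan4c: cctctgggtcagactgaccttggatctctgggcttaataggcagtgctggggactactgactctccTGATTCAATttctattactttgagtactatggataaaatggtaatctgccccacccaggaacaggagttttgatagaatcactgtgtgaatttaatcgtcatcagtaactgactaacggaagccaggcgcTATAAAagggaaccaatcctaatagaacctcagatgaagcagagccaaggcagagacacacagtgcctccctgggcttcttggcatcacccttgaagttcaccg
Zscan4d: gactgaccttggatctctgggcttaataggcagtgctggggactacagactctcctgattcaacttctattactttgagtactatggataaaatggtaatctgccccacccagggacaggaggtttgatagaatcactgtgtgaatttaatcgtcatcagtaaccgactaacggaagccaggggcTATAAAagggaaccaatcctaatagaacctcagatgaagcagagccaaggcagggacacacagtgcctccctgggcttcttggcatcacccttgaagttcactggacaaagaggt
Zscan4f: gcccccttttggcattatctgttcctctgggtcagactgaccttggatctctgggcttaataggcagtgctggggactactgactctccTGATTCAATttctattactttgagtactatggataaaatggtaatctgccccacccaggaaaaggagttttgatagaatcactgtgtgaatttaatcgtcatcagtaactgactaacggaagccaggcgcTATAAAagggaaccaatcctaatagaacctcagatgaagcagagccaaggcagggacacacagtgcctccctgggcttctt
Zfp352: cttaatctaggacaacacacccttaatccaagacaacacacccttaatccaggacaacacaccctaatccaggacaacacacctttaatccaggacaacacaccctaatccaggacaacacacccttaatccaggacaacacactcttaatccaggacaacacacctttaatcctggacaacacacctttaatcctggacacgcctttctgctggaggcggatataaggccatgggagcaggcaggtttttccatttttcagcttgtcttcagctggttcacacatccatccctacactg
Where the windows overlap, those of Zscan4c and Zscan4f were identical at 275 of 277 bases (99.3 percent). Zscan4c and Zscan4d were identical at 281 of 289 bases (97.2 percent), and Zscan4d and Zscan4f at 259 of 266 (97.4 percent). A window of Zscan4b, which is not a member, was also on hand. It was identical to those of Zscan4c, Zscan4d and Zscan4f at 95.3, 97.7 and 95.7 percent of aligned bases. All 3 printed Zscan4 windows hold TATAAA, which 13.6 percent of 32851 promoter windows of the same length hold on either strand. Those of Zscan4c and Zscan4f also hold TGATTNAAT on the strand of the gene, which 0.718 percent of all windows hold on either strand. The Zscan4b window holds TATAAA as well, and TGATTNAAT on the opposite strand. The whole 11 letters of the Dux motif are in 0.0335 percent of all windows and in none of the 4 printed. Zfp352 holds none of the 3 motifs in its window. A match is a description of the sequence and not evidence of binding.

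The Zscan4 probes were well above background on every wild type array and on 1 knock-in array, PKM1 knock-in day 7. The Zscan4f probe read 17.4, 12.3 and 166 at days 0, 3 and 7 in PKM1 knock-in cells. It read 14.5, 5.28 and 5.55 in PKM2 knock-in cells, against 252, 1050 and 172 in wild type. These are background-subtracted intensities scaled so that every array has the same 75th percentile, 439.6. Each wild type value was higher than every knock-in value of this probe, as for 2.1 percent of the 15011 genes tested, although PKM1 knock-in day 7 came close to wild type day 7. The scanner software marked the probe as well above background on the 3 wild type arrays and on PKM1 knock-in day 7, and on none of the other 5 arrays. Values that are not well above background have no order among themselves.

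Zscan4a was read by a pair of probes. Its tested probe gave 6.28, 10.8 and 64.4 at days 0, 3 and 7 in PKM1 knock-in cells. It gave 9.48, 5.63 and 7.3 in PKM2 knock-in cells, against 179, 891 and 124 in wild type. The other Zscan4a probe was well above background on the same 4 arrays, at 43.9 on PKM1 knock-in day 7 against 128, 667 and 140 in wild type at days 0, 3 and 7. For both probes every wild type array was above every knock-in array, as for 2.1 percent of the 15011 genes tested, each read by its tested probe. The filter kept Zscan4a through the wild type arrays, which favoured this order.

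Zscan4c was read by 3 probes. Its tested probe gave 13.3, 10.9 and 36.1 at days 0, 3 and 7 in PKM1 knock-in cells. It gave 13.9, 5.54 and 18.5 in PKM2 knock-in cells, against 121, 606 and 88.8 in wild type. The other Zscan4c probes read 20.9 and 81.1 on PKM1 knock-in day 7, and 24.5 and 137 on wild type day 7. The same 4 arrays were well above background for all 3 probes.

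In all, the 6 Zscan4 probes agreed on which arrays carried signal. On PKM1 knock-in day 7 they ranged from 20.9 to 166, and on the other 5 knock-in arrays, where all 6 were not well above background, from 4.34 to 18.5. In wild type they ranged from 29.5 to 252 at day 0, from 81.8 to 1050 at day 3 and from 24.5 to 172 at day 7. Over the 9 arrays the log2 signals of the 15 probe pairs correlated at r = 0.928 to 0.991. Over the 4 arrays above background, r was 0.912 to 0.999. These correlations share the same arrays and the same background readings. The probe sequences were not on hand, so whether a probe also binds the transcripts of other Zscan4 copies was not tested, and the 6 probes may share targets. Zscan4d had no probe of its own and is not described.

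**Figure D1:**
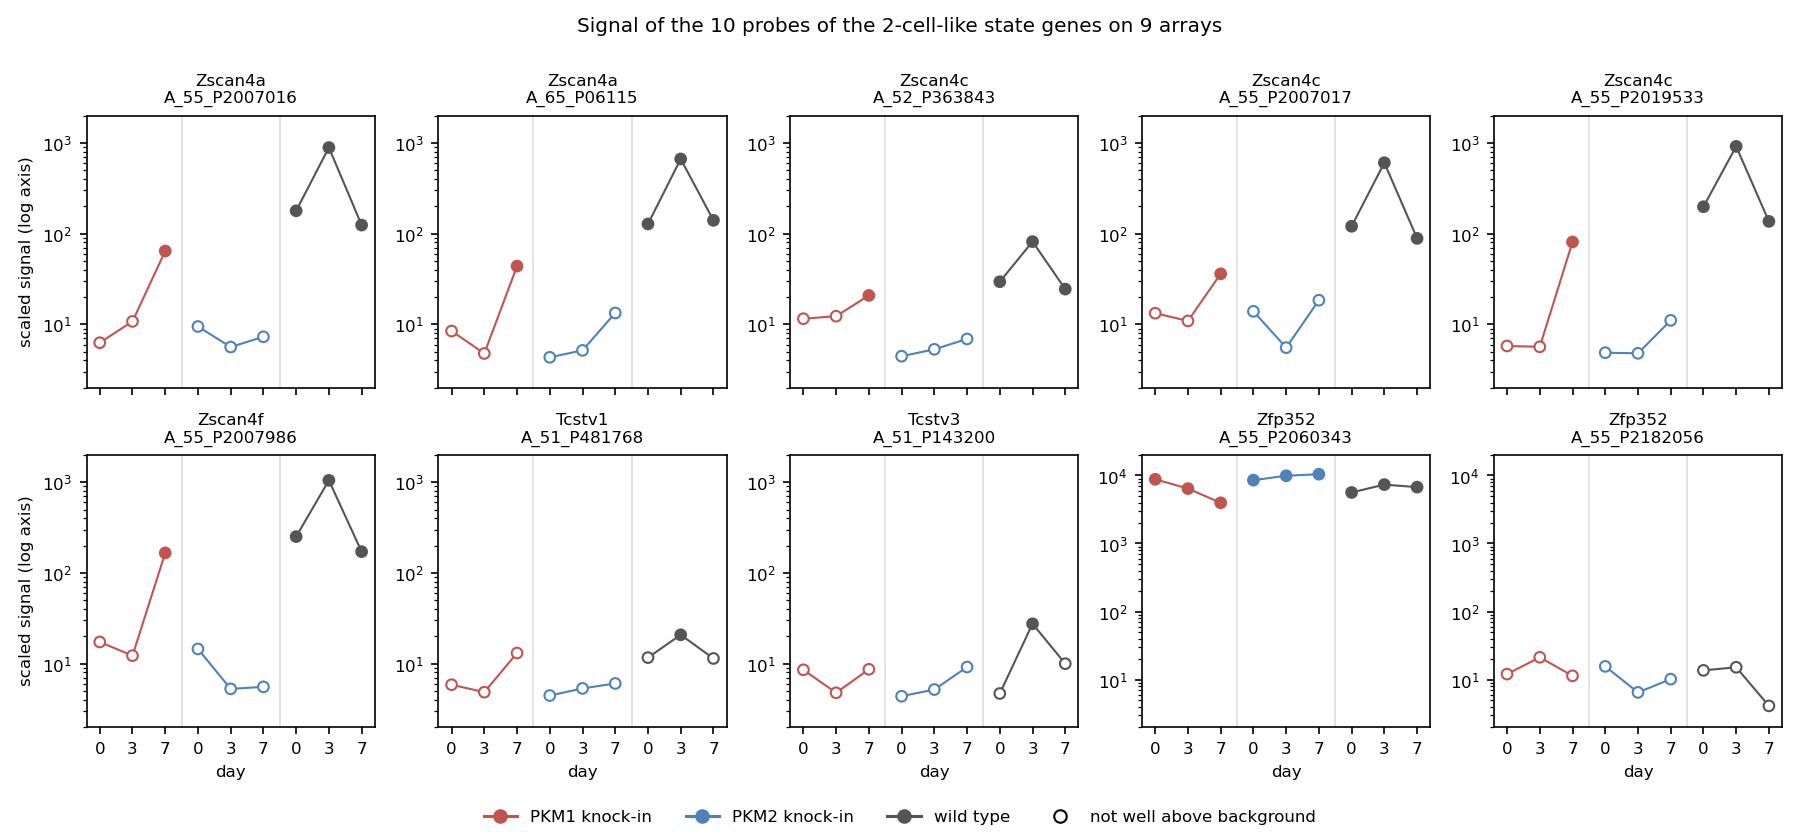
Scaled signal (log axis, one scale for the Zscan4 and Tcstv panels and another for the Zfp352 panels) of the 10 probes at days 0, 3 and 7 in the PKM1 knock-in, PKM2 knock-in and wild type lines, 1 array per point. Open points are not well above background: all 6 Zscan4 probes are filled on the 3 wild type arrays and on PKM1 knock-in day 7, and Tcstv1 and Tcstv3 on wild type day 3 alone.

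Against wild type, the Zscan4 genes had the lower mean in both knock-in lines, and none of the differences passed the test. In PKM2 knock-in cells the mean log2 signal of Zscan4f over the 3 days was 2.91 ± 0.82, against 8.48 ± 1.38 in wild type (SD, n = 3 days each). The limma difference was -5.57 ± 1.16 (SE) with an adjusted p of 0.132, and all 3 days were lower. Because no PKM2 knock-in array was well above background, the fold is a bound that rests on a level set for the dim arrays. Zscan4f was at least 18.2-fold lower than in wild type over the 3 days, and at least 10.9-fold lower without day 3. Such a bound sets the dim arrays at the lowest signal that counted as well above background there (14.98 to 24.19 over the arrays). Where the reading itself was higher, the reading was used. A probe can read above that signal and still not be well above background, as a Zfp352 probe did on PKM1 knock-in day 3 (21.2 against 19.1). The bounds are therefore nominal and hold for the scaled processed signals alone. With normexp background correction the differences in PKM2 knock-in cells were -2.41 for Zscan4f, -2.05 for Zscan4a and -2.28 for Zscan4c (limma adjusted p = 0.155, 0.165 and 0.141).

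Zscan4a had a limma difference of -5.21 ± 1.01 in PKM2 knock-in cells (adjusted p = 0.120) and was at least 13.8-fold lower, or at least 7.80-fold without day 3. Zscan4c differed by -4.05 ± 0.88 (limma adjusted p = 0.138) and was at least 9.51-fold lower, or at least 5.41-fold without day 3. For PKM1 knock-in cells, which were above background at day 7, Zscan4f had a mean log2 signal of 5.04 ± 2.04 (SD, n = 3 days). Its limma difference from wild type was -3.44 ± 1.16 (adjusted p = 0.312), that of Zscan4a was -4.05 ± 1.01 (adjusted p = 0.208) and that of Zscan4c was -3.43 ± 0.88 (adjusted p = 0.218). Every one of these genes was lower on 3 of 3 days in both lines, although the log2 difference of Zscan4f at PKM1 knock-in day 7 was -0.05. The share of all genes lower on each day in both lines was not computed. As the filter kept these genes through wild type, this count supports no direction.

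In each comparison 0 of the 4 tested members were called at an adjusted p under 0.05. Among all genes limma called 0.0133 percent between PKM1 knock-in and wild type, and 0.0133 percent between PKM2 knock-in and wild type, 2 genes each. The 3 Zscan4 genes had an unadjusted p under 0.05 in both comparisons, and 1850 and 2012 of the 15011 genes did so too. Since the filter kept these 3 genes through wild type, that count supports nothing about the members. Tested probe by probe, the 6 Zscan4 probes ranged from -4.40 to -1.44 in PKM1 knock-in cells and from -5.57 to -2.78 in PKM2 knock-in cells. Their adjusted p-values over all probes ran from 0.153 to 0.310 and from 0.127 to 0.145. The F test over lines gave adjusted p-values of 0.194 to 0.220 for the Zscan4 genes, where 0.0133 percent of genes were called and 0 of the 4 members (unadjusted p under 0.05 for 3 members and 1932 genes). The limma model and the standard errors take the floored readings of dim arrays as measured values.

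**Figure D2:**
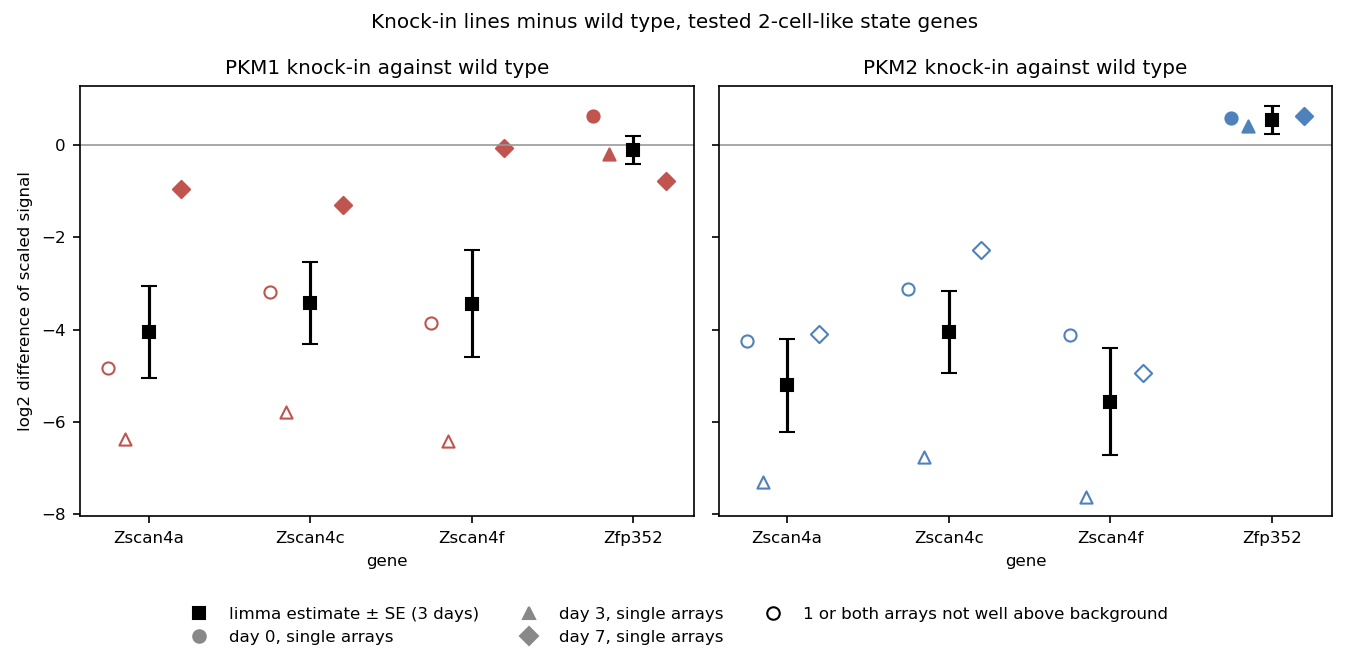
Log2 difference from wild type of the 4 tested genes in PKM1 knock-in cells (left) and PKM2 knock-in cells (right). Black squares are limma estimates over 3 days with their standard errors, and coloured points are the differences between the single arrays of a day, open where 1 or both arrays were not well above background. All 3 Zscan4 genes lie below 0 on each day, and Zscan4f on PKM1 knock-in day 7 lies at -0.05.

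By day, the log2 readings of the 6 Zscan4 probes in PKM2 knock-in cells differed from wild type by -5.31 to -2.56 at day 0, by -7.64 to -3.95 at day 3 and by -4.95 to -1.83 at day 7. The day 0 arrays of these lines were on the same slide. PKM1 knock-in cells differed from wild type by -5.10 to -1.35 at day 0, by -7.34 to -2.73 at day 3 and by -1.68 to -0.05 at day 7. These are differences between single arrays, with no replicate check, and those that involve a dim array depend on how background is treated. With normexp background correction, 5 of the 6 probes were lower in PKM1 knock-in cells at day 0 and 4 of 6 at day 7, and 5 of 6 in PKM2 knock-in cells at day 7. At the other days 6 of 6 were lower under that setting in both lines.

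The arrays lay on 3 slides. Wild type days 0 and 7, PKM2 knock-in days 0 and 3 and PKM1 knock-in day 3 were on slide 1. Wild type day 3 and PKM1 knock-in days 0 and 7 were on slide 2, and PKM2 knock-in day 7 was alone on slide 3, so a slide term leaves it without weight. With the slide as a block the PKM2 knock-in differences from wild type were -4.28 for Zscan4f, -4.42 for Zscan4a and -3.82 for Zscan4c (limma adjusted p = 0.410, 0.410 and 0.384). Those of PKM1 knock-in cells were -4.19, -4.63 and -4.02 in the same order (limma adjusted p = 0.262, 0.257 and 0.233). Within slide 1, the day 0 difference of PKM2 knock-in from wild type was -4.11 for Zscan4f, -4.24 for Zscan4a and -3.12 for Zscan4c. As the knock-in readings were not above background there, the measured folds are bounds, at least 14.6, 10.4 and 7.00 in the same order. No slide held a PKM1 knock-in and a wild type array of the same day. Without the wild type day 3 array Zscan4f differed by -4.31 in PKM2 knock-in cells and by -2.18 in PKM1 knock-in cells. Without the PKM1 knock-in day 7 array, Zscan4f differed by -4.99 between PKM1 knock-in and wild type.

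None of the differences between the knock-in lines passed the test. In PKM2 knock-in against PKM1 knock-in the limma differences were -2.13 ± 1.16 for Zscan4f, -1.16 ± 1.01 for Zscan4a and -0.63 ± 0.88 for Zscan4c (adjusted p = 0.650, 0.740 and 0.839). Here 0 percent of all genes were called, 1193 genes had an unadjusted p under 0.05, and 0 of the 4 members did. At day 7, where PKM1 knock-in was above background and PKM2 knock-in was not, the readings of the 6 probes differed by -4.91 to -0.97 (log2). As bounds, 5 probes were at least 1.70-fold to 7.84-fold lower with the PKM2 knock-in, Zscan4f the most, and 1 Zscan4c probe gave no bound. At day 3, on the same slide, the probes of both lines were not well above background.

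Wild type ES cells showed their highest Zscan4 readings at day 3. Relative to day 0 the 6 probes were 1.47 to 2.38 log2 units higher at day 3, and at day 7 they differed from day 3 by -2.84 to -1.74. The wild type day 3 array was on slide 2 and those of days 0 and 7 on slide 1, so day and slide cannot be told apart here. Between days 7 and 0, on the same slide, the wild type probes differed by -0.55 to 0.13. In PKM1 knock-in cells the probes were not well above background at days 0 and 3, and their day 7 readings were 0.85 to 3.81 log2 units above day 0, also on the same slide. As bounds, 5 probes were at least 1.49-fold to 6.88-fold higher at day 7 than at day 0. The Zscan4c probe that read 20.9 at day 7 gave no bound, because the lowest detected signal at day 0 was 24.19. Against day 3 the bounds of the 6 probes ran from 1.09-fold to 8.71-fold, and Zscan4f had the highest bound in both. Over the 3 lines together none of the day differences passed the test, whose error includes how far the lines differed in their day changes. The limma day differences of the 3 Zscan4 genes lay between 0.03 and 0.82, with adjusted p-values from 0.662 to 0.990.

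Among the members, 0 of 4 were called in day 3 against day 0, in which limma called 4.05 percent of all genes. In day 7 against day 0 it called 0 of 4 members and 0.0933 percent of genes, and in day 7 against day 3 it called 0 of 4 members and 0 percent of genes. The F test over days called 0 of 4 members and 1.19 percent of genes. At an unadjusted p under 0.05 these tests held 0 members each, and 3932, 2152, 4550 and 4489 genes in the order given.

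The pair of Zfp352 probes disagreed, and neither shared the detection pattern of the Zscan4 probes. One probe was well above background on all 9 arrays. It read 8790, 6413 and 3964 at days 0, 3 and 7 in PKM1 knock-in cells and 8536, 9903 and 10437 in PKM2 knock-in cells, against 5622, 7341 and 6735 in wild type. PKM2 knock-in values lay above all wild type values, as for 7.93 percent of the genes tested, whereas those of PKM1 knock-in cells lay on both sides of them. The other Zfp352 probe, of the same accession, was well above background on none of the 9 arrays and read between 4.1 and 21.2. With 2 probes of a gene so far apart, which of them follows the Zfp352 transcript was not tested.

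The brighter probe stood for the gene in the test. In PKM2 knock-in cells the mean log2 signal of Zfp352 was 13.23 ± 0.15, against 12.67 ± 0.20 in wild type (SD, n = 3 days each). The limma difference was 0.56 ± 0.31 with an adjusted p of 0.493, higher on 3 of 3 days, and with the slide as a block it was 0.37. In PKM1 knock-in cells it was -0.11 ± 0.31 (adjusted p = 0.934 in limma). It was below wild type at 2 of the 3 days, and the estimate was 0.24 without the PKM1 knock-in day 7 array. PKM2 knock-in against PKM1 knock-in gave 0.66 ± 0.31 (limma adjusted p = 0.644). The day differences of Zfp352 were between -0.25 and 0.05 (limma adjusted p = 0.611 to 0.945).

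Tcstv1 and Tcstv3 were at the edge of detection. Tcstv1 read 5.87, 4.85 and 13.1 at days 0, 3 and 7 in PKM1 knock-in cells and 4.45, 5.34 and 6.05 in PKM2 knock-in cells, against 11.7, 20.8 and 11.4 in wild type. Tcstv3 read 8.56, 4.78 and 8.67 in PKM1 knock-in cells and 4.38, 5.19 and 9.18 in PKM2 knock-in cells, against 4.69, 27.5 and 10.01 in wild type. Both probes were well above background on wild type day 3 and on none of the other 8 arrays. That is the array on which the Zscan4 probes were brightest. Neither gene was tested.

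The Tcstv genes lie at either end of a cluster on chromosome 13, which spans 28 genes in the RefSeq annotation, 6 of them with a probe. The neighbours did not share one pattern. Gm20767 was well above background on the same 4 arrays as Zscan4, with 187 on PKM1 knock-in day 7 against 149, 355 and 130 in wild type at days 0, 3 and 7. One probe of AF067061 read 10.04, 20.4 and 311 in PKM1 knock-in cells and 38.0, 4.36 and 9.96 in PKM2 knock-in cells, against 200, 553 and 169 in wild type. It was well above background on 6 arrays, among them PKM1 knock-in day 3 and PKM2 knock-in day 0. The other AF067061 probe was well above background only on PKM1 knock-in day 7 (26.5) and wild type days 3 and 7 (53.7 and 16.5). By contrast BC147527 was well above background on all 9 arrays, between 304 and 459. B020031M17Rik was above background on all 9 arrays too, with its lowest reading, 463, on wild type day 3 and its highest, 7259, on PKM2 knock-in day 0.

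Other genes known from the 2-cell embryo or the 2-cell-like state were read from a list of 42, of which 29 had a probe. Of these, 9 were above background on no array and 20 on at least 1. Counted by line, 14 genes were detected on a PKM1 knock-in array, 8 on a PKM2 knock-in array and 19 on a wild type array, and 0 were detected in PKM2 knock-in cells and not in wild type. By array, 5, 5 and 14 genes were detected in PKM1 knock-in cells at days 0, 3 and 7 and 7, 5 and 7 in PKM2 knock-in cells, against 14, 15 and 12 in wild type. The shares of all genes detected in each line, or in PKM2 knock-in cells and not in wild type, were not computed. The counts by line and by array therefore support nothing about the listed genes. Of the 24 probes that were above background on some arrays but not on all, 15 were brightest on wild type day 3. The share of all such probes on the array that were brightest there was not computed, so this count supports nothing about these genes. Dim probes also depend on the array as a whole: over all spots but controls, 54.2 to 60.9 percent were well above background on the PKM1 knock-in arrays, 55.3 to 59.5 percent on the PKM2 knock-in arrays and 59.5 to 61.6 percent on the wild type arrays. The part of this difference in the member results was not tested.

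**Figure D3:**
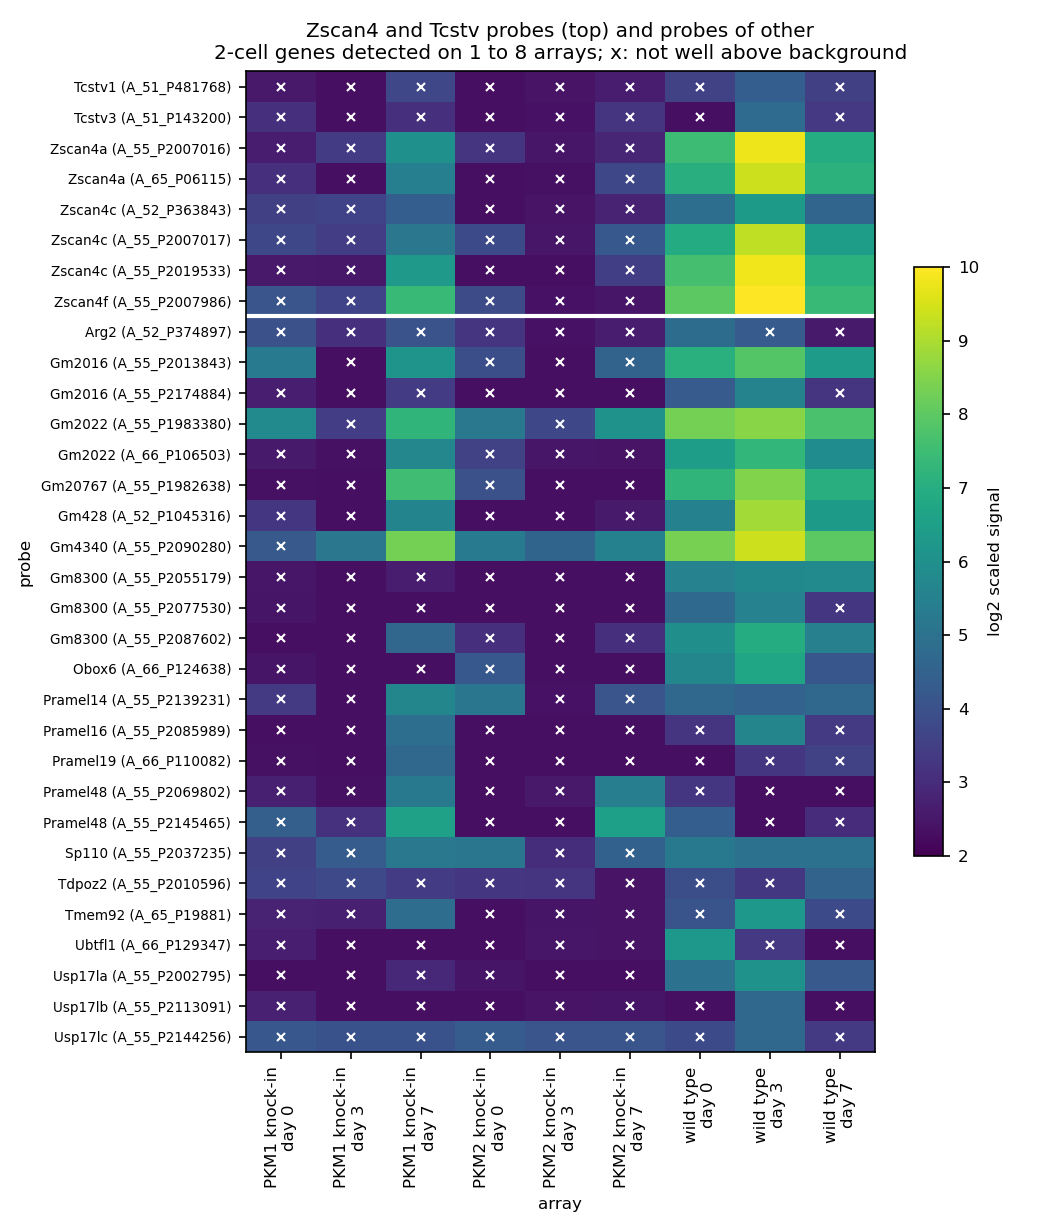
Log2 scaled signal of the Zscan4 and Tcstv probes (above the white line) and of the probes of other 2-cell genes that were well above background on 1 to 8 of the 9 arrays, with an x where a probe was not well above background. Columns are the arrays of the PKM1 knock-in, PKM2 knock-in and wild type lines. The columns of wild type and of PKM1 knock-in day 7 hold the most cells without an x.

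Among the 12 of these genes that were tested, 9 were lower in PKM1 knock-in cells and 9 in PKM2 knock-in cells than in wild type. The median differences were -1.75 and -1.65, beside 0.05 and 0.04 over all genes tested, and 0 of 12 were called in any comparison. At most 4.05 percent of all genes were called in a comparison. Some of these genes, such as Gm20767, Gm428, Gm8300 and Obox6, passed the filter through the wild type arrays where they were bright. The filter thus favoured lower knock-in values, and the counts and medians support no direction. The smallest adjusted p-values were 0.159 in PKM1 knock-in cells and 0.132 in PKM2 knock-in cells. Gm20767 differed by -4.70 ± 1.37 in PKM2 knock-in cells (limma adjusted p = 0.225) and by -3.50 ± 1.37 in PKM1 knock-in cells (adjusted p = 0.376). Gm428 read 9.55, 4.95 and 49.0 in PKM1 knock-in cells at days 0, 3 and 7 and 4.88, 4.54 and 6.01 in PKM2 knock-in cells, against 46.2, 479 and 81.6 in wild type. It differed from wild type by -4.52 ± 1.01 in PKM2 knock-in cells (limma adjusted p = 0.143). Obox6, of a family of homeobox genes of the oocyte and early embryo, was above background on the wild type arrays alone, at 50.4, 103 and 17.5 at days 0, 3 and 7. It was named after its values were seen.

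**Figure D4:**
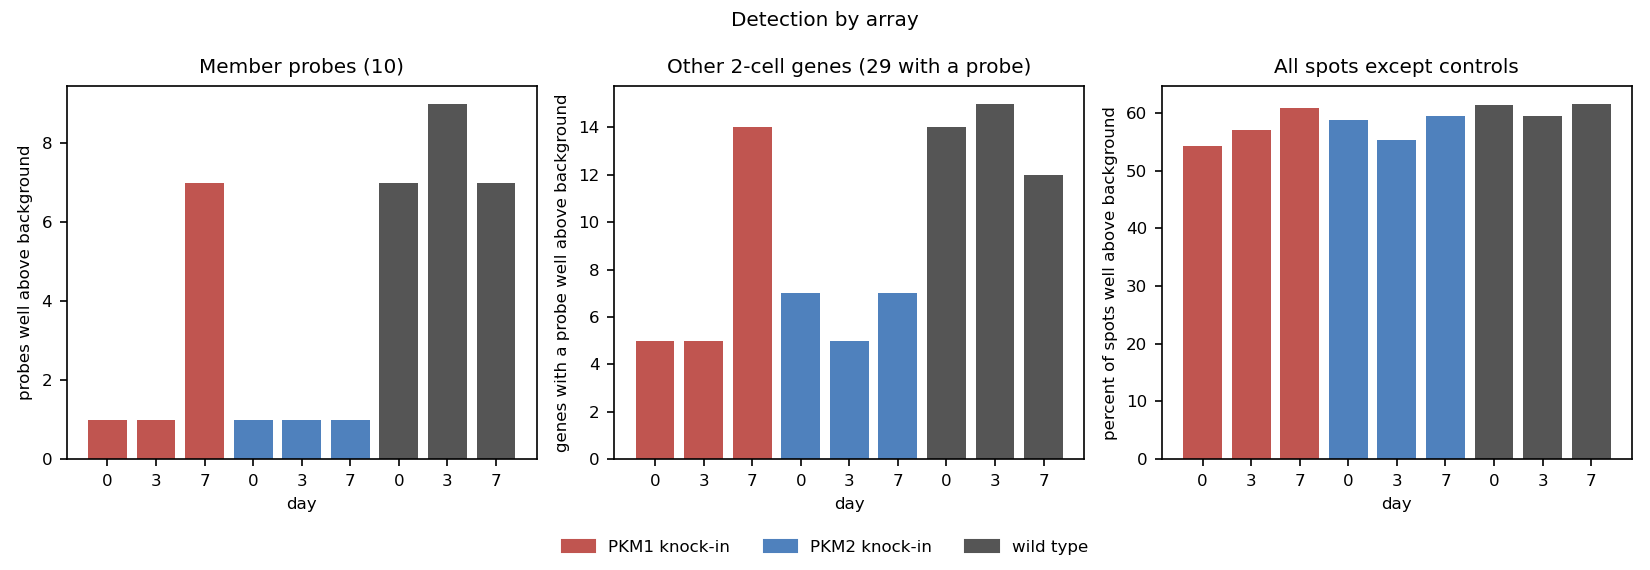
Number of member probes (left, of 10) and of other 2-cell genes (middle, of 29 with a probe) that were well above background on each array, and the percent of all spots except controls (right). Bars start at 0 and run over days 0, 3 and 7 in the PKM1 knock-in, PKM2 knock-in and wild type lines. The PKM1 knock-in day 7 array had 7 member probes above background, and the other knock-in arrays had 1 each, the Zfp352 probe.

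The pattern of detection shared by the Zscan4 probes was rare among all genes. Of the 15011 genes tested, 101 (0.673 percent) were above background on all 3 wild type arrays and on no PKM2 knock-in array, and 3 of the 4 tested members were among them. The narrower pattern of the 3 wild type arrays and PKM1 knock-in day 7 alone held 33 genes (0.22 percent). These included 3 members and 3 of the 12 tested genes of the other 2-cell list (Gm20767, Gm428 and Gm8300). Both patterns were set after the member values were seen, so these counts describe the arrays and test nothing.

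The genes whose log2 signal followed a member most closely over the 9 arrays were found by Pearson correlation among all genes tested. For Zscan4f they were Gm428 (r = 0.964), Gm20767 (r = 0.963), AF067061 (r = 0.957), Pramel31 (r = 0.956) and Dynll2 (r = 0.955). Pramel31, of the PRAME-like family, was above background on 4 arrays, and Dynll2, a dynein light chain, on all 9. For Zfp352 they were Mon1b (r = 0.963), Usp4 (r = 0.957), Shprh (r = 0.949), Ddx17 (r = 0.919) and Fndc9 (r = 0.919). For Tcstv1, which rests on 1 array above background, they were Gm428 (r = 0.981), Pramel20 (r = 0.964), Pramel31 (r = 0.958), Gm4340 (r = 0.958) and Gm8300 (r = 0.947). Each value is the highest of many and rests on 9 arrays that share lines and days. Gm428, Gm4340, Gm8300 and Gm20767 were in the list of other 2-cell genes.

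Genes known to act on the 2-cell-like state showed no call between lines, where limma called at most 0.0133 percent of all genes. Dppa2 and Dppa4, DNA-binding proteins that act upstream of Dux, Nelfa, a subunit of the negative elongation factor, and the T-box factor Tbx3 were above background on all 9 arrays. Against wild type their limma differences were -0.79 to -0.08 in PKM1 knock-in cells and -0.20 to 0.30 in PKM2 knock-in cells. Tbx3 fell at day 3 against day 0 by 1.54 ± 0.31 (limma adjusted p = 0.0496), where 4.05 percent of all genes were called. This was the 1 call among the 4 genes in any comparison. The call held in 10 of 24 alternative fits (difference -1.81 to -1.15, limma adjusted p = 0.0209 to 0.268) and was lost without any 1 array other than PKM2 knock-in day 7. It read 4481, 7893 and 11936 at day 3 in the PKM1 knock-in, PKM2 knock-in and wild type lines, against 22331, 19545 and 23831 at day 0.

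Of 16 repressors of the state, among them the co-repressor Trim28, the histone methyltransferase Setdb1 and the chromatin assembly subunits Chaf1a and Chaf1b, 0 were called in any comparison. Of all genes, 4.05 percent were called in day 3 against day 0, the most of any comparison, and 0 percent in day 7 against day 3. The median differences of the repressors from wild type were -0.06 in PKM1 knock-in cells and 0.08 in PKM2 knock-in cells, beside 0.05 and 0.04 over all genes. At day 3 against day 0, 15 of 16 were higher (median 0.52, beside 0.09 over all genes). At day 7 against day 3, 16 of 16 were lower (median -0.67, beside -0.13). The share of all genes higher or lower in these 2 comparisons was not computed, so the counts support no direction for the repressors. The largest difference in the list was that of nucleolin, Ncl, at day 7 against day 3, -1.11 ± 0.25 (limma adjusted p = 0.082). Of 10 tested genes of telomere maintenance and meiotic recombination, processes that Zscan4 is known to touch, 0 were called. Smc1b, a meiotic cohesin subunit, had the largest difference, -2.02 ± 0.87 in PKM2 knock-in against PKM1 knock-in (limma adjusted p = 0.635). Spo11, the meiotic enzyme that cuts DNA, was well above background on no array.

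The edited gene, Pkm, was read by 1 probe, at 12221, 27041 and 15585 at days 0, 3 and 7 in PKM1 knock-in cells and 14075, 20208 and 12451 in PKM2 knock-in cells, against 12749, 70305 and 25985 in wild type. Where the probe lies among the exons that tell M1 from M2 is not known here, so it does not check the knock-ins. All 5 markers of pluripotent cells (Pou5f1, Nanog, Sox2, Zfp42 and Esrrb) were above background on all 9 arrays. Their summed signal was lowest, 41726, on PKM1 knock-in day 7 and lay between 88152 and 197812 elsewhere. Pou5f1, Sox2, Zfp42 and Esrrb each had their lowest reading on that array, whereas Nanog read 326 there, within 102 to 383 over the 9 arrays. Visceral endoderm markers (6 genes such as Afp and Ttr) summed to 317437 on that array. They summed to 2601 on PKM2 knock-in day 7, 2145 on wild type day 7 and at most 504 on the other 6 arrays. All 6 were detected on PKM1 knock-in day 7 and on wild type day 7, and 5 of 6 on PKM2 knock-in day 7. PKM1 knock-in day 7 was the knock-in array with Zscan4 signal, and the part of its different makeup in that signal was not tested. Fibroblast and feeder markers (7 genes such as Col1a1 and Thy1, 4 to 7 detected) summed to 15574, 936 and 5878 at days 0, 3 and 7 in PKM1 knock-in cells and 3556, 637 and 524 in PKM2 knock-in cells, against 15958, 1304 and 3932 in wild type. Their part in the Zscan4 differences was not tested.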

How the data were processed

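RNA of 9 cultures, 1 per line and day, was labelled with Cy3 and hybridised to one-colour arrays. The authors read the arrays with Agilent Feature Extraction 10.10 (per the submitters' processing notes and the file headers), and the deposited intensity is its background-subtracted processed signal per spot, beside marks of detection. Each array held 62976 spots, 3671 of them controls that were left out, and 133 to 225 marked as outliers. With so few arrays precision is limited, and the standard error of a log2 difference had a median of 0.260.

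Processed signals were scaled to a common 75th percentile, floored at 5 and log2 transformed, and spots of one probe were averaged. Probes were named through RefSeq accessions (27235 of 55681 probes, 20660 genes). Probes well above background on at least 3 arrays were kept, and the one with the highest mean stood for a gene, which left 15011 genes. The test was an additive linear model, line plus day, over the 9 arrays (limma 3.58.1 in R 4.3.3, with version 1.17.8 of data.table), adjusted by Benjamini and Hochberg over all genes, and an adjusted p under 0.05 was called. Line and day cannot be given an interaction test with 1 array each. Python 3.11.15 with pandas 2.3.3, Biopython 1.88 (promoter alignments) and matplotlib 3.10.9 served for sequences and figures.

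The members, the other gene lists and the markers were chosen with earlier results of these data known. Every probe of a member was read on every array. From each other list up to 4 called genes with the largest change, or up to 2 where none was called, were named, or all genes of a list of 5 or fewer, and for 3 members the 5 most similar genes. Obox6 and the neighbours of the Tcstv genes were added after their values were seen.

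Alternatives were normexp background correction (offset 50, on median foreground and background, as no mean foreground column was on hand), quantile normalization, scaling to probes detected on all arrays, the deposited value table (the same intensities rounded, largest difference 0.497 percent), detection on all 9 arrays or no filter at all, a floor of 1 or of 20, single probes, averaged probes, moderation with a trend and robust settings, the slide as a block, no line or day block, leaving out each array, line or day, and a threshold of 0.1.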

Additional observations from a re-analysis of the deposited data

Results flagged for a closer look

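Readings of some Zscan4 probes moved in opposite directions over time in PKM1 knock-in and wild type cells, with 1 array per line and day, so the difference between the lines was not tested. The lines were compared on the tested probe of each gene, where each line moved by more than 0.5 log2 units. Between day 7 and day 0, Zscan4a changed by 3.36 in PKM1 knock-in cells and by -0.52 in wild type, a difference of 3.88. Zscan4f changed by 3.26 and -0.55 over the same days, a difference of 3.81. The other Zscan4a probe was higher at day 7 than at day 0 in both lines, by 2.38 in PKM1 knock-in cells and by 0.13 in wild type, and the tested Zscan4c probe changed by -0.44 in wild type, short of 0.5. An untested Zscan4c probe changed by 3.81 in PKM1 knock-in cells and by -0.54 in wild type, and the other untested one by 0.85 and -0.27. Between day 7 and day 3, Zscan4a changed by 2.58 in PKM1 knock-in cells and by -2.84 in wild type, 5.42 apart. Zscan4c changed by 1.73 and -2.77, 4.50 apart, and Zscan4f by 3.76 and -2.61, 6.37 apart. Over all 6 Zscan4 probes these changes ran from 0.76 to 3.84 in PKM1 knock-in cells and from -2.84 to -1.74 in wild type. The day 0 and day 3 readings of PKM1 knock-in cells were not well above background, so the sizes for PKM1 knock-in cells rest in part on background readings. Days 7 and 0 of each line were on one slide, and days 7 and 3 were not. The PKM1 knock-in day 7 array also had the highest visceral endoderm and the lowest summed pluripotency marker signal, and the part of that makeup in these differences was not tested.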

How the results depend on the processing

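Under each of 26 alternatives, 0 members were called in each of the 6 contrasts and in both F tests. The smallest adjusted p of a member was 0.0941, for PKM2 knock-in against wild type without the PKM1 knock-in day 7 array. Leaving out an array, line or day also gave 0 calls in every test. The Zscan4 genes stayed below wild type in all 138 fits of both knock-in lines. These fits reuse the same arrays, the probes may share targets, and the filter kept these genes through wild type. The count of fits therefore supports no direction. Leaving out arrays or days, Zscan4f ranged from -6.57 to -4.31 in PKM2 knock-in cells and from -5.14 to -1.95 in PKM1 knock-in cells, and normexp gave -2.41 and -1.78. Among the other 420 fitted member differences, 58 changed sign and 0 were called, which includes Zscan4a in PKM2 knock-in against PKM1 knock-in (0.21 with the slide as a block). Of 90 member levels, normexp moved 62 by more than the spread and the other 3 scalings moved 0. The filter on all 9 arrays left Zfp352 alone to test. Counts over all genes depended on the setting: they ran from 0 to 1749 in day 3 against day 0, from 0 to 227 in day 7 against day 0, from 0 to 2383 in day 7 against day 3 and from 0 to 2005 in the F test over days. Between lines they ran from 0 to 8 for PKM1 knock-in and from 0 to 17 for PKM2 knock-in, each against wild type, from 0 to 6 in the F test over lines, and they were 0 between the knock-ins. Lines were compared within days by the day term of the model, and the fits without it are among the alternatives. No paired analysis was possible by replicate number, which the labels do not give. Bounds without day 3 were added after the values were seen. Readings below the lowest detected signal, 14.98 to 24.19 by array, have no order.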
